A study of Mus musculus with 4 samples.

Results

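Chromatin accessibility was examined at the genes of 6 transcriptional regulators: the 4 EBF factors (Ebf1, Ebf2, Ebf3 and Ebf4) and the zinc-finger proteins Zfp423 and Zfp521 that bind them. A locus was the gene body plus 50 kb around each annotated transcription start site (TSS) on the mm9 build, and every ATAC-seq peak whose summit fell inside it was taken. This gave 357 of 239709 peaks. Peaks of the 4 libraries that shared at least 1 bp were joined into a site, which gave 164 of 100904 sites in the genome. ATAC-seq maps open chromatin by letting the Tn5 transposase cut accessible DNA. It had been run on im-scWAT cells, stromal-vascular cells of subcutaneous white adipose tissue from 5-week-old mice that were immortalised with SV40 large T antigen, so that the cells of both genotypes carry that antigen. WT cells were Jmjd1a +/+, and HY cells were Jmjd1a HY/HY, with both copies encoding an enzymatically inactive form of this H3K9 demethylase. D0 cells were confluent and not yet differentiated. D8 cells had received indomethacin, dexamethasone, 3-isobutyl-1-methylxanthine, rosiglitazone, insulin and T3 for 2 days and then insulin, T3 and rosiglitazone alone until day 8, a protocol for beige adipocytes. There was 1 library per genotype and day, so each difference below compares libraries and carries no p-value.

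EBF proteins bind DNA as dimers through a palindromic site. EBF1 is known from B-cell development and promotes adipocyte differentiation, EBF2 marks brown and beige precursors and helps PPARγ reach thermogenic genes, EBF3 is best known from the nervous system, and EBF4 is the most divergent member. ZFP423 supports commitment of preadipocytes, and in mature white adipocytes it holds back EBF2 and thereby the thermogenic programme. ZFP521, its close relative, restrains adipocyte differentiation through EBF1 and through the Zfp423 gene.

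The lists held 71523 and 41228 peaks in WT at D0 and D8 and 77994 and 48964 in HY. The summit pileup, the number of overlapping tags at a peak's highest point, was solved from the deposited columns, and its level "over background" is the pileup divided by the genome-wide rate of that library, which was 0.659, 0.531, 0.708 and 0.494 in the same order. A site is called opened where both D8 libraries and neither D0 library list a peak, and closed in the reverse case. A library without a peak has no value at that site, which is not a level of 0: at the background rate the weakest peaks listed had a pileup of 4 or 5. Of 6 adipocyte genes, 2 had a promoter peak at D0 and 6 at D8 in each genotype. Of 6 preadipocyte genes, 6 had one in WT D0 and 4 in HY D0, where Pdgfra and Dlk1 had none, and 1 in each D8 library. The promoters of the immune genes Ptprc and Cd68 and of the muscle genes Myod1, Myf5 and Myog had no peak in any library. Of the endothelial genes, Cdh5 had none, Pecam1 had a peak in WT D0 and Tek in both D0 libraries. Of 4 thermogenic genes, 3 (Cidea, Ppargc1a and Elovl3) had a promoter peak in each D8 library, while at D0 1 of them had one in WT and 2 in HY. The promoter of Ucp1, the best known of the 4, had no peak in any library. Jmjd1a (annotated as Kdm3a) had promoter pileups of 67, 53, 84 and 60 in the order above, which does not check the genotype, since HY changes the protein and not the promoter. In cultures measured as a whole, a change in the share of cells and a change in each cell cannot be told apart.

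For each gene but Zfp521, the opened and the closed site with the highest level in its weaker genotype are shown as sequence, so that opened and closed sites can be read side by side. Ebf4 had no opened site, and at Ebf2 the opened site at 182 kb tied with the one shown. Each line gives the plus strand of mm9 from 100 bases before to 100 bases after the highest summit, and capitals mark matches to a C/EBP motif (TTGCNNAA), an AP-1 motif (TGANTCA) or the core of the EBF palindrome (CCCNNGGG), searched on both strands. C/EBP factors drive adipocyte differentiation, and AP-1 is abundant in proliferating fibroblast-like cells. None of the 9 windows overlaps an exon.
Zfp423, opened, 8 kb upstream (chr8:90491397-90491597): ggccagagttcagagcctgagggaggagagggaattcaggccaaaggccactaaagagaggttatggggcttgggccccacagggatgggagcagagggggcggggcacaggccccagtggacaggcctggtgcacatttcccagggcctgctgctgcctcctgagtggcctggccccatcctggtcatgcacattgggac
Ebf1, opened, 152 kb downstream of the first TSS (chr11:44583067-44583267): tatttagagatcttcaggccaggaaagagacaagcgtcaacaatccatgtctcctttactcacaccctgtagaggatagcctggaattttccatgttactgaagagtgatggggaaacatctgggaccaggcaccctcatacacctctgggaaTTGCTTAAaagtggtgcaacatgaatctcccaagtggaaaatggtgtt
Ebf2, opened, 124 kb downstream of the TSS (chr14:67975996-67976196): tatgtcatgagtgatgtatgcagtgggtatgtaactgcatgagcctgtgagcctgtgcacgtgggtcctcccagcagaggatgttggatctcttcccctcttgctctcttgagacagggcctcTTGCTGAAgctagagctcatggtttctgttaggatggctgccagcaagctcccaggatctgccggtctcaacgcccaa
Ebf3, opened, 92.5 kb downstream of the first TSS (chr7:144413544-144413744): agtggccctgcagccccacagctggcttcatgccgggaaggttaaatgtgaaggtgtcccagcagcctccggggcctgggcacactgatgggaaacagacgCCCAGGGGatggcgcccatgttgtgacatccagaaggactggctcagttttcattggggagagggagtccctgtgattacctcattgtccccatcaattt
Zfp423, closed, 32.1 kb downstream of the first TSS (chr8:90451311-90451511): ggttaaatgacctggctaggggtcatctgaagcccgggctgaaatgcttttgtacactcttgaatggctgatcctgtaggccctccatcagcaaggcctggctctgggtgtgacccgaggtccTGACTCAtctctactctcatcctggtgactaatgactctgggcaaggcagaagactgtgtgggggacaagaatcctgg
Ebf1, closed, 109 kb downstream of the first TSS (chr11:44539344-44539544): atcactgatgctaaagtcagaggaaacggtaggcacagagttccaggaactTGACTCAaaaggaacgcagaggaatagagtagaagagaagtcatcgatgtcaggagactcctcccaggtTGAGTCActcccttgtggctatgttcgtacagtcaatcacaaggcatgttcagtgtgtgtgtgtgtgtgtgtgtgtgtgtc
Ebf2, closed, 8.95 kb downstream of the TSS (chr14:67860977-67861177): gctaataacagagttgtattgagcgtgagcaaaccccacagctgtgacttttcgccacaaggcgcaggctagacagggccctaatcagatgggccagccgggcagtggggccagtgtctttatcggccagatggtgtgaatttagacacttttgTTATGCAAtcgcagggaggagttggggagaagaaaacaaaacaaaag
Ebf3, closed, 5.32 kb downstream of the first TSS (chr7:144500711-144500911): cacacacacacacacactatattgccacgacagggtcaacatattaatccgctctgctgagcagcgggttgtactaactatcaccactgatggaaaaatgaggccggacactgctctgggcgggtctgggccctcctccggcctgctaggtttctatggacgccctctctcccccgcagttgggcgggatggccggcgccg
Ebf4, closed, 1.5 kb upstream (chr2:130119305-130119505): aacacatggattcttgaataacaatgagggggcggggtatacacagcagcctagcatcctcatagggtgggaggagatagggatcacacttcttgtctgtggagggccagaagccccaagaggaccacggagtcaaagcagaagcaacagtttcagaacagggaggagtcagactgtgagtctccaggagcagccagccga

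The opened windows of Ebf1 and Ebf2 each hold 1 match to the C/EBP motif, and that of Ebf3 holds the EBF core. The opened Zfp423 window holds no match to any of these letters, and neither does the window of the strongest closed Zfp521 site, whose sequence is not shown. The closed window of Ebf1 holds 2 AP-1 matches and that of Zfp423 holds 1. The closed window of Ebf2 holds a C/EBP match and no AP-1 match, and the closed windows of Ebf3 and Ebf4 hold no match. Over all 24 opened sites, 10 (41.7%, 95% exact binomial interval 22.1% to 63.4%) had a C/EBP match within 100 bp of the summit. Of the opened sites in the genome 26.9% had one, which lies inside that interval. Within 50 bp, 3 sites (12.5%) had one, next to 12.7% in the genome. Of the 35 closed sites, 11 (31.4%, 16.9% to 49.3%) had an AP-1 match, next to 31.9% of closed sites in the genome. Each motif was also found in the other class. AP-1 matches were in 4 opened sites (16.7%, 4.74% to 37.4%), where the genome had 7.11%, and C/EBP matches in 5 closed sites (14.3%, 4.81% to 30.3%), where it had 8.83%. The full palindrome of EBF itself (TCCCNNGGGA) was found at 3 of 164 sites (1.83%, 95% exact binomial interval 0.379% to 5.25%), against 1.36% of 100608 windows of this length on the assembled chromosomes. The matches were TCCCGAGGGA in an Ebf2 intron and TCCCCAGGGA at a pair of Ebf4 sites. A match is a description of letters, and no binding was measured.

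The 6 loci together had 103 and 64 peaks in WT at D0 and D8 and 102 and 88 in HY. Of their 164 sites, 24 opened in both genotypes (14.6%), a share above the 6% of the genome. Closed in both genotypes were 35 (21.3%), next to 24.6% of the genome, and 28 (17.1%) had a peak in all 4 libraries, below the 24.2% of the genome. Within WT, 28 of 129 sites had a peak at D8 only, where the genome had 12.1%, and 67 at D0 only, where it had 52.7%. Within HY, 45 of 144 had a peak at D8 only and 58 at D0 only, where the genome had 13.7% and 49.3%. Opened sites were thus more frequent at these loci than elsewhere, while closed sites were near or below the genome's share. At least 1 opened site was present at 4 of the 6 genes, as at 28.8% of protein-coding genes, and at least 1 closed site at 6 of 6, as at 66.8%. These genes are long and their windows hold many sites, and no test was made of the counts.

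**Figure D1:**
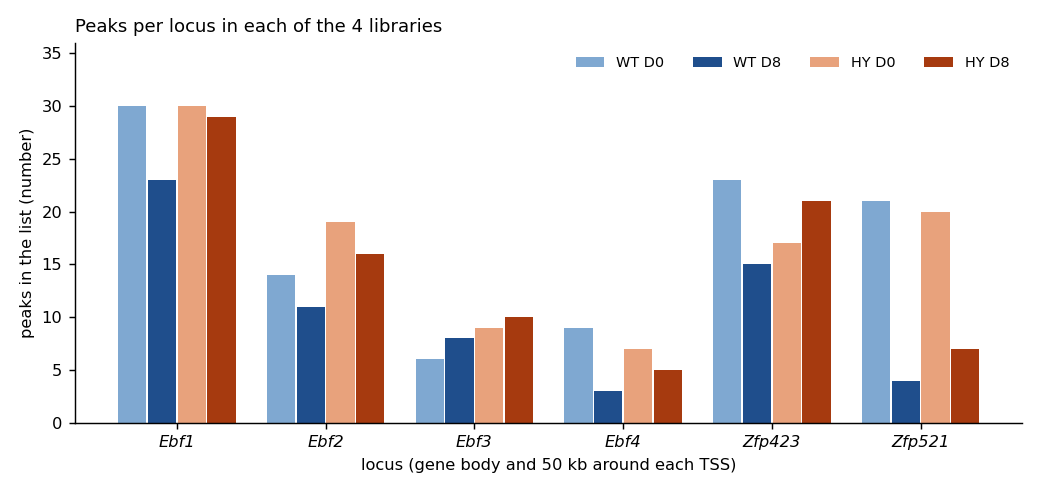
Number of peaks listed in each of the 4 libraries (bars, coloured by genotype and day) at each of the 6 loci. Zfp521 goes from 21 to 4 peaks in WT and from 20 to 7 in HY, Ebf3 has more peaks at D8 in both genotypes, and Zfp423 has fewer at D8 in WT (15 against 23) and more in HY (21 against 17).

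The balance of opened and closed sites rests on how long the lists are. The D0 lists are longer, and where each was shortened to its 41228 peaks of highest −log10 q, 35 sites opened and 9 closed, against 12.6% and 14.1% of the genome. That step keeps all WT D8 peaks but only D0 peaks with a −log10 q of at least 7.31 in WT and 8.65 in HY. The share of opened sites stayed above the genome's there, at 35.4%. Fewer sites closed at each of the genes on these lists: 2 in place of 10 at Ebf1, 2 in place of 6 at Ebf2, 1 in place of 3 at Ebf3, 0 in place of 2 at Ebf4, 2 in place of 4 at Zfp423 and 2 in place of 10 at Zfp521.

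**Figure D2:**
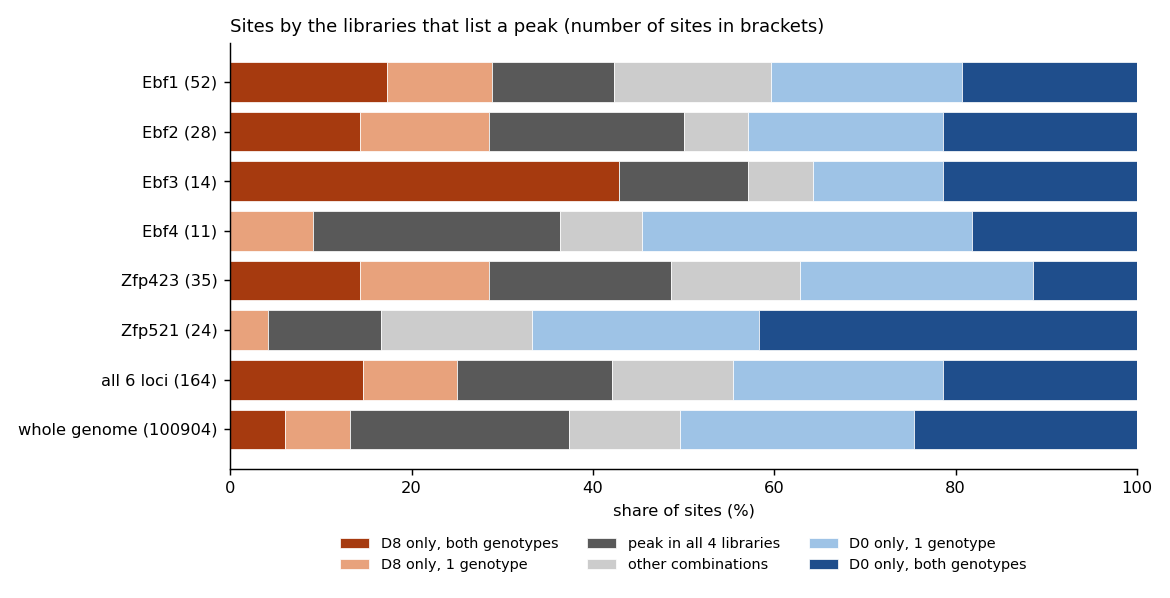
Share of sites (%) at each locus, at all 6 loci and in the whole genome by the libraries that list a peak, with the number of sites in brackets. Opened sites make up 42.9% at Ebf3 and 0% at Ebf4 and Zfp521, and closed sites make up 41.7% at Zfp521.

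Ebf1 (ENSMUSG00000057098.7, chr11:44430819-44821593, plus strand) was the largest locus, with a gene body of 391 kb. Its window of 441 kb held 52 sites, of which 48 lay in introns and 4 between genes. It had 30 peaks in each D0 library, 23 in the WT and 29 in the HY library at D8. Opened were 9 sites, closed were 10, and 7 had a peak in all 4 libraries, while 13 opened and 2 closed with lists of equal length. The promoter site, 0.141 kb upstream of the first TSS, had pileups of 48 and 47 in WT at D0 and D8 and 63 and 45 in HY. Over background these were 72.9, 88.5, 89 and 91.1, and the D8 level was 1.22 times the D0 level in WT (95% exact interval 0.795 to 1.86) and 1.02 times in HY (0.682 to 1.52). The promoter was therefore open in all 4 libraries with no change beyond counting error. Its HY ratio was 0.797 when the deposited fold over the local background was used. A ratio compares the highest summits that 2 libraries have within a site. Of the 75 D8 to D0 ratios at these loci, 16 had summits more than 150 bp apart and 3 came from peaks that did not overlap each other.

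Inside the Ebf1 gene, several intronic sites had a higher level at D8. At 48.7 kb from the first TSS the pileup was 6 and 21 in WT at D0 and D8 and 9 and 20 in HY. This is 4.34 times higher at D8 in WT (1.7 to 13.2) and 3.18 times in HY (1.39 to 7.94). By the deposited fold over the local background, the D8 to D0 ratio of this site was 2.01 in WT and 1.22 in HY. At 308 kb the pileups were 17, 34, 13 and 27 in WT D0, WT D8, HY D0 and HY D8, or 2.48 times higher at D8 in WT (1.35 to 4.74) and 2.97 times in HY (1.48 to 6.28). Both D8 libraries were above both D0 libraries at these sites, and they were the only shared sites of the 6 loci that were at least 2-fold higher at D8 in both genotypes. By the deposited fold, the ratios at 308 kb were 1.73 in WT and 1.66 in HY. The site at 194 kb had no peak in WT D0 and a pileup of 20 in WT D8. In HY its pileup went from a low 6 at D0 to 26 at D8. That is 6.21 times higher (2.5 to 18.4), or 3.04 times by the deposited fold, with the HY summits 172 bp apart. At 40.8 kb, WT had a peak only at D8, with a pileup of 22, and HY had 8 at D0 and 24 at D8 in a pair of peaks that did not overlap.

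The strongest opened Ebf1 site lay at 152 kb, with pileups of 18 in the WT and 20 in the HY library at D8 (33.9 and 40.5 over background), and is the Ebf1 sequence with the C/EBP match above. Its weaker value exceeded that of 78.3% of all opened sites in the genome. A second opened site at 151 kb had 12 and 15, and one at 171 kb had 13 and 12. The closed Ebf1 site at 109 kb had 13 in WT D0 and 14 in HY D0, with a weaker value above that of 66.8% of closed sites in the genome, and those at 195 kb and 386 kb had 11 and 11, and 11 and 12. Toward the 3′ end, a site at 334 kb went from 33 to 7 in WT, which is 0.263 times the D0 level (0.0983 to 0.605) or 0.438 by the deposited fold, and had 26 in HY D0 and no peak in HY D8. The neighbouring site at 327 kb had 20 in WT D0 and no peak in WT D8, and went from 26 to 7 in HY (0.386, 0.141 to 0.912). At the alternative promoter 295 kb into the gene, WT D0 had a pileup of 11, HY D8 had 7, and the other libraries listed no peak.

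Ebf2 (ENSMUSG00000022053.6; chr14:67852129-68048604, plus strand) had 28 sites, with 14 and 11 peaks in WT at D0 and D8 and 19 and 16 in HY. Opened were 4 sites and closed were 6, while 7 opened and 2 closed with lists of equal length. The TSS itself carried a peak in the 5′ UTR exon only at D0, where WT had a pileup of 17 and HY of 15. The intronic site 1.25 kb downstream stayed open throughout, with 46, 40, 43 and 45 in WT D0, WT D8, HY D0 and HY D8, and a D8 to D0 ratio of 1.08 in WT (0.688 to 1.69) and 1.5 in HY (0.964 to 2.33), or 1 in HY by the deposited fold. So the D8 lists hold no peak on the TSS and keep the strong one next to it. The lowest pileup that would be listed at the TSS site at D8 was estimated as 10 in WT and 9 in HY. A missing peak there is therefore not a measured loss. Its D0 peaks had a −log10 q of 5.28 in WT and 4.12 in HY, and neither is kept with lists of equal length. Further closed sites lay at 2.4 kb (17 in each D0 library) and 8.95 kb (17 in WT and 18 in HY).

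The opened sites of Ebf2 lay 30.1 kb upstream, with 11 in the WT and 20 in the HY library at D8, and at 124 kb (12 and 17), 182 kb (12 and 12) and 184 kb (10 and 11) in introns. HY D8 was 1.95 times WT D8 at the upstream site, with an interval of 0.892 to 4.51 that includes 1. Beside the opened site at 124 kb, a separate site less than 1 kb away had a peak in every library, with 8 and 12 in WT at D0 and D8 and 9 and 22 in HY. Its D8 level was 3.5 times the D0 level in HY (1.55 to 8.64) and 1.86 times in WT (0.7 to 5.25). These ratios were 1.68 and 1.24 on the deposited scale. The site carries the Ebf2 match to the full EBF palindrome. The strongest distal site, 44.5 kb upstream, changed little: 58, 35, 49 and 39 in WT D0, WT D8, HY D0 and HY D8, with ratios of 0.749 in WT (0.478 to 1.16) and 1.14 in HY (0.729 to 1.77), or 0.934 in HY by the deposited fold. At 39.1 kb the level was lower at D8 in both genotypes, from 23 to 10 in WT (0.54, 0.229 to 1.18) and from 20 to 9 in HY (0.644, 0.258 to 1.48), with both intervals including 1.

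Ebf3 (ENSMUSG00000010476.6; chr7:144385356-144506128, minus strand) was the locus with the highest share of opened sites, 6 of 14. The number of peaks went from 6 to 8 in WT and from 9 to 10 in HY. The promoter site, 0.053 kb upstream of the first TSS, had pileups of 21, 20, 19 and 20 in WT D0, WT D8, HY D0 and HY D8, with D8 to D0 ratios of 1.18 in WT (0.608 to 2.29) and 1.51 in HY (0.764 to 2.99), both within counting error. The HY ratio was 0.929 on the deposited scale. Of the opened sites, 4 lay toward the 3′ end of the gene: at 92.5 kb with 12 in the WT and 20 in the HY library at D8, at 91.1 kb with 7 and 15, at 85.6 kb with 8 and 9, and at 84.9 kb with 6 and 7. The others lay at 36.1 kb, with 10 in each D8 library, and 31.9 kb upstream, with 12 and 7. These are low pileups, and 3 opened sites were left when each list was limited to a −log10 q of 5 or more. At that limit Ebf1 had 11 opened sites, and the rank of Ebf3 given above is that of the full lists. Closed sites lay nearer the start, at 5.32 kb (18 in WT D0 and 12 in HY D0), at 20.1 kb (10 and 8) and at the alternative TSS at 46.8 kb (9 and 9). A further site at 10.4 kb had 20 in WT D0 and none listed in WT D8, and went from 25 to 6 in HY (0.344, 0.115 to 0.858).

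Ebf4 (ENSMUSG00000053552.7; chr2:130120905-130196217, plus strand) had 11 sites and no opened one. With lists of equal length 1 Ebf4 site opened and 0 closed. The Ebf4 window holds the promoters of neighbouring genes that encode a nucleolar protein (Nop56) and a mitochondrial dehydrogenase subunit (Idh3b). Those promoters were the strongest sites of the locus, with pileups of 47, 45, 54 and 41 at Nop56 and 20, 13, 29 and 16 at Idh3b in WT D0, WT D8, HY D0 and HY D8. The site at the promoter of the other Ebf4 TSS, 0.607 kb from the first, was weaker, with 10, 10, 17 and 11. Its D8 to D0 ratio was 1.24 in WT (0.464 to 3.32) and 0.927 in HY (0.392 to 2.1), or 1.33 and 1.02 by the deposited fold, so no change was detectable at this depth. At the first TSS a peak was listed in HY D8 only, with a pileup of 8. Closed sites lay 1.5 kb upstream (14 in WT D0 and 20 in HY D0) and at 67.6 kb (8 and 9).

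**Figure D3:**
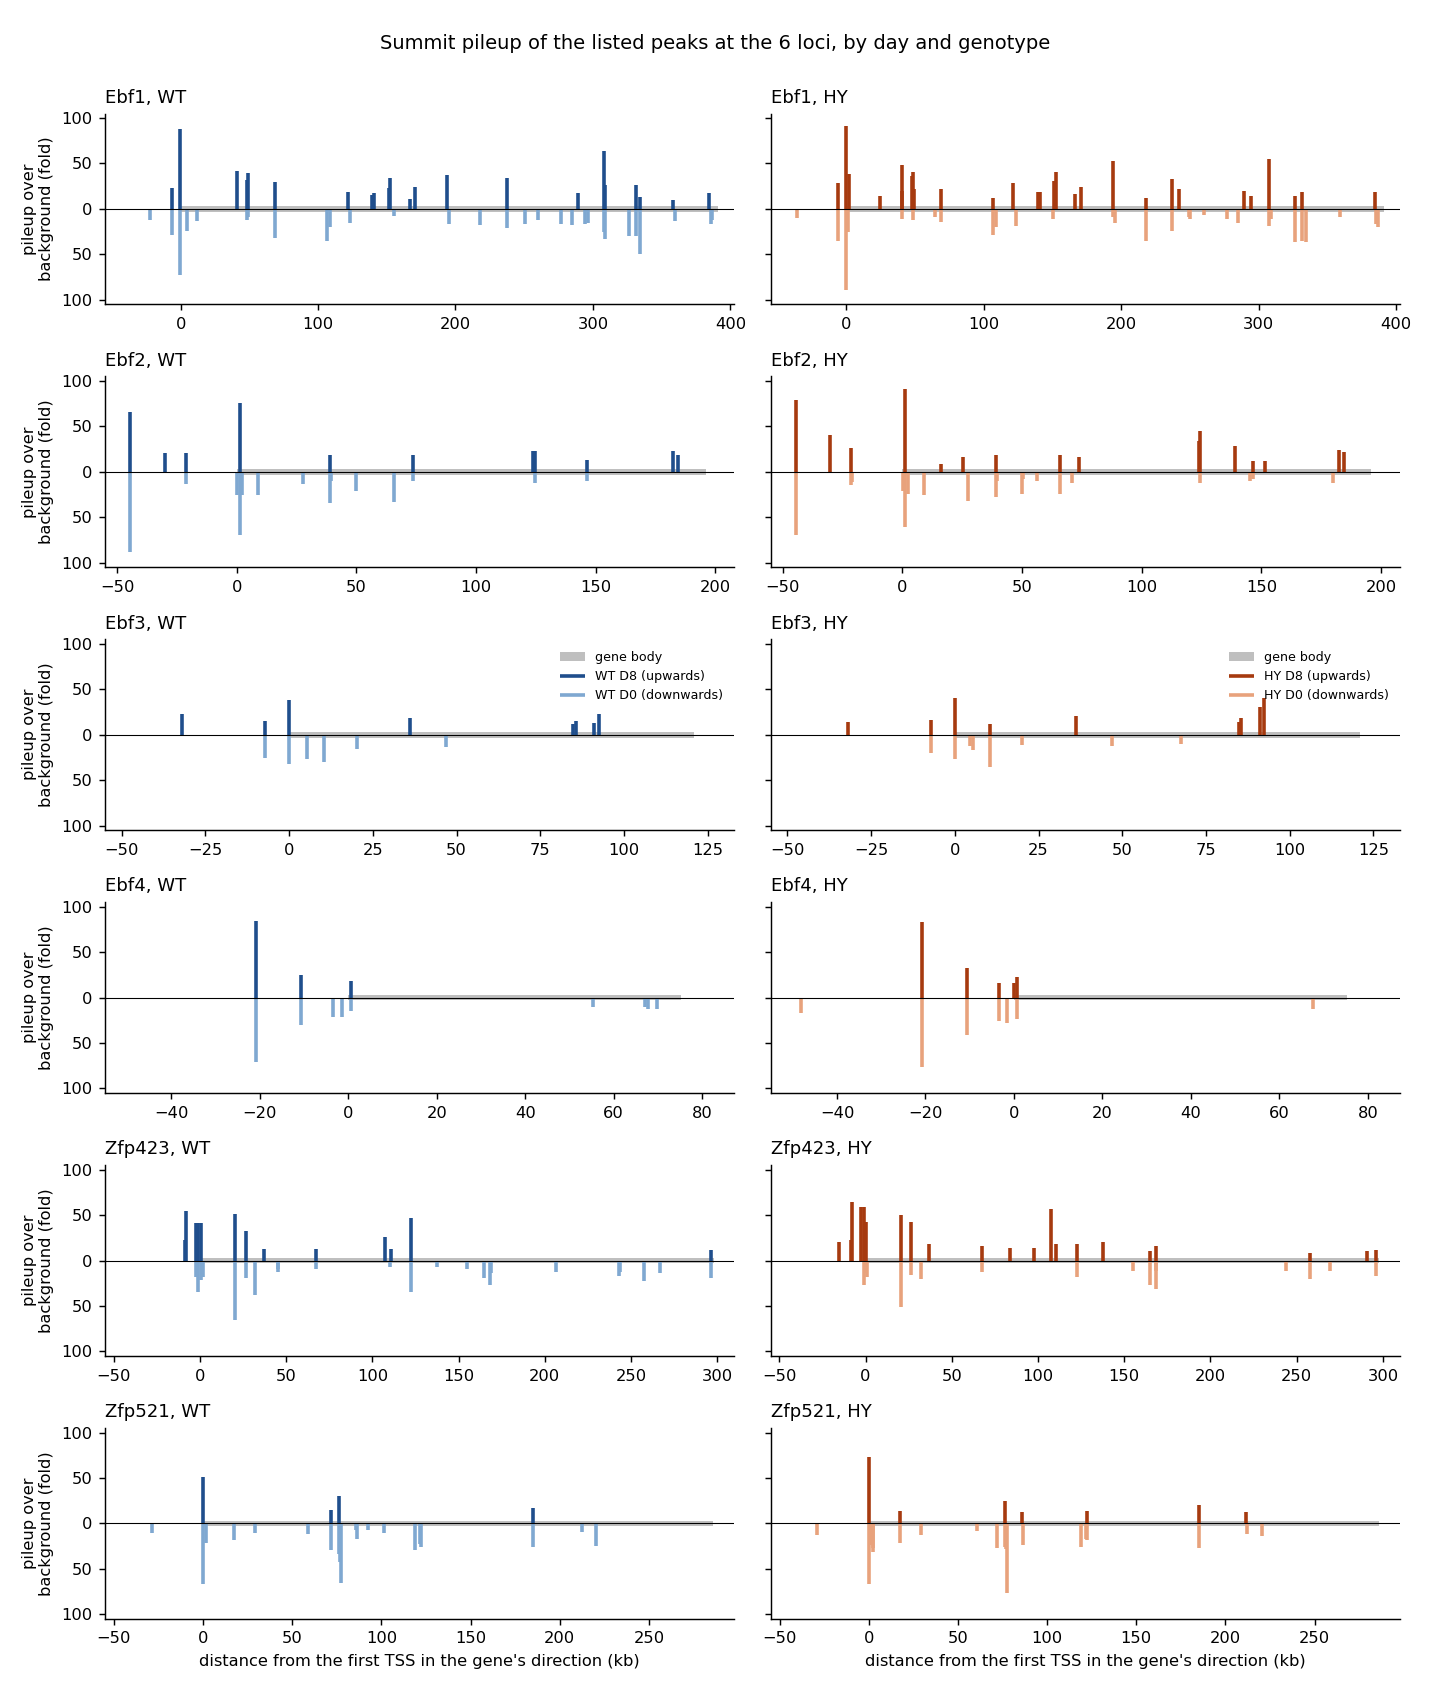
Summit pileup over background (fold) of the listed peaks against the distance from the first TSS in the direction of transcription (kb), with D8 drawn upwards and D0 downwards, WT on the left, HY on the right and the gene body as a grey bar. Zfp521 shows D0 lines along the gene and few D8 lines, and Zfp423 shows D8 lines around and upstream of its TSS, with 54.6 in WT and 64.8 in HY at 8 kb upstream.

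Zfp423 (ENSMUSG00000045333.9; chr8:90185709-90483494, minus strand) had 35 sites, of which 5 opened and 4 closed. Limited to a −log10 q of 5 or more, 3 opened and 4 closed, and with lists of equal length 7 opened and 2 closed. The strongest opened site of all 6 loci lay 8 kb upstream of the first Zfp423 TSS (chr8:90491072-90491674, intergenic). It had pileups of 29 in the WT and 32 in the HY library at D8 and no peak at D0, and its weaker value exceeded that of 94.4% of opened sites in the genome. The D8 libraries did not differ there beyond counting error (HY over WT 1.19, 0.695 to 2.03). A smaller opened site lay next to it, 8.43 kb upstream, with 12 and 11. An intronic site at 107 kb opened with 14 in the WT and 28 in the HY library at D8, a ratio of 2.15 (1.09 to 4.42), or 1.72 by the deposited fold over the local background.

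Around the start of Zfp423 several sites were higher at D8 when scaled by the genome-wide rate, and less so, or lower, by the deposited fold over the local background. In the coding exon 0.377 kb from the first TSS the pileup went from 14 to 22 in WT, 1.95 times (0.954 to 4.12), and from 10 to 21 in HY, 3.01 times (1.36 to 7.15). By the deposited fold the ratios of this site were 1.05 in WT and 1.1 in HY, since its local background was 2.08 and 3.49 in WT at D0 and D8 and 2.16 and 4.76 in HY. The site 1.08 kb upstream went from 23 to 22 in WT (1.19, 0.631 to 2.23) and from 19 to 29 in HY (2.19, 1.18 to 4.12). On the deposited scale its ratios were 0.651 and 0.828, so the direction at this site depends on the background used. A site 2.52 kb upstream went from 12 to 22 in WT (2.28, 1.08 to 5.04, or 1.24 by the deposited fold) and had 29 in HY D8 with no peak in HY D0. The intronic site at 26.5 kb went from 13 to 17 in WT (1.62, 0.742 to 3.63, or 1.28 by the deposited fold) and from 11 to 21 in HY (2.73, 1.26 to 6.28, or 1.72 by the deposited fold).

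The body of Zfp423 also held sites that closed. The strongest, at 32.1 kb, had 25 in WT D0 and 14 in HY D0 and is the Zfp423 sequence with the AP-1 match. Those at 244 kb and 169 kb had 8 and 8, and 9 and 8. At 168 kb and 165 kb WT listed a peak at D0 only, with 18 and 13. HY listed one on both days, and went from 22 to 8 (0.521, 0.2 to 1.21) and from 19 to 5 (0.377, 0.11 to 1.04). The HY D8 peak at 165 kb had a −log10 q of 2.44. It is not kept at a limit of 5 or with lists of equal length. The site at 123 kb was the only shared site of this gene at which HY lay below WT beyond counting error, with 25 in the WT and 9 in the HY library at D8 (0.387, 0.159 to 0.857), after 23 and 13 at D0 (0.526, 0.245 to 1.08). The strong site at 20.6 kb had 43, 27, 36 and 25 in WT D0, WT D8, HY D0 and HY D8. Its D8 to D0 ratio was 0.779 in WT (0.463 to 1.29) and 0.994 in HY (0.572 to 1.7). The summits compared there were 392 bp apart in WT and 256 bp in HY.

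**Figure D4:**
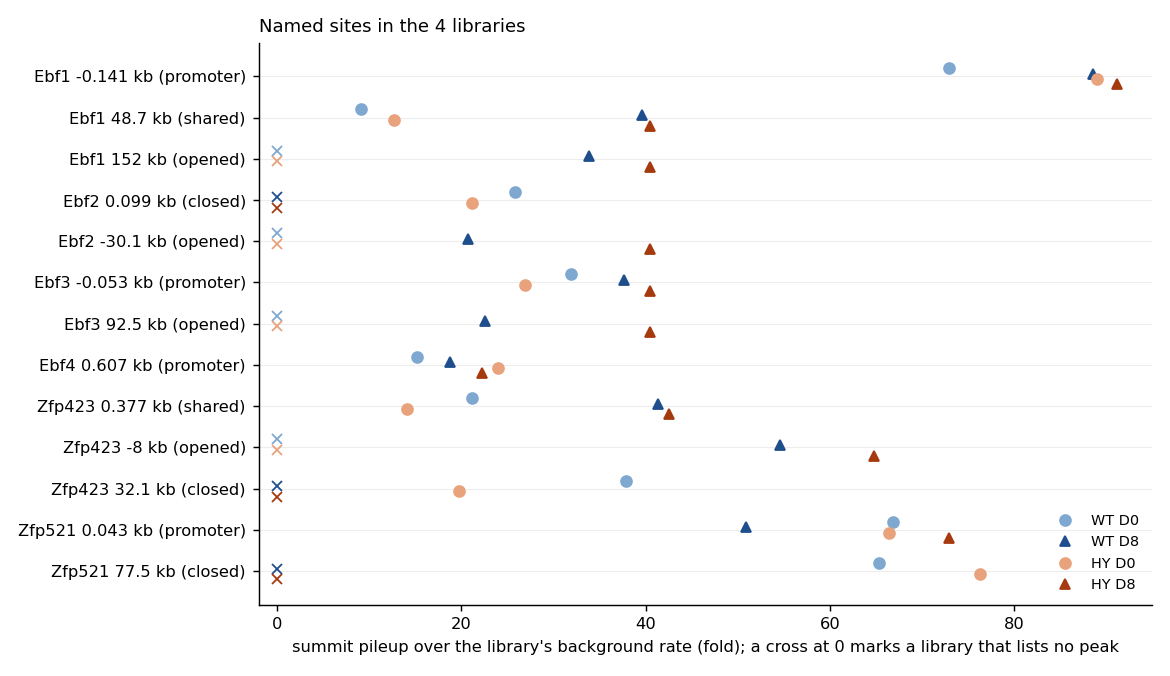
Summit pileup over background (fold) of 13 sites in the 4 libraries (circles D0, triangles D8), where a cross at 0 marks a library that lists no peak. The promoter sites drawn for Ebf1, Ebf3, Ebf4 and Zfp521 were taken only from those with a peak in every library. Other promoter sites of Ebf1, Ebf3 and Ebf4 lack a peak in some libraries and are not drawn. The Zfp423 site 8 kb upstream has a peak only at D8 and the Zfp521 site at 77.5 kb only at D0.

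Zfp521 (ENSMUSG00000024420.7; minus strand of chromosome 18, 13845522 to 14131242) had the highest share of closed sites among the 6 loci. Of its 24 sites, 10 closed and 0 opened, where WT lost 16 of 20 D0 sites (80%, genome 60%) and HY lost 14 of 19 (73.7%, genome 57.1%). The number of peaks went from 21 to 4 in WT and from 20 to 7 in HY. With lists of equal length 2 sites closed and 1 opened, and the sites with a peak went from 9 to 4 in WT and from 7 to 5 in HY. On the same lists Ebf1 went from 14 to 22 in WT and from 10 to 25 in HY, and Ebf2, Ebf3 and Zfp423 also had more sites at D8 than at D0 in both genotypes. Ebf4 went from 2 to 3 in WT and from 5 to 3 in HY. Zfp521 thus had fewer sites at D8 in both genotypes under either choice of lists, while its number of closed sites went from 10 to 2.

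The strongest closed site of all 6 loci lay in Zfp521, 77.5 kb from its TSS, with pileups of 43 in WT D0 and 54 in HY D0 and no peak at D8. Its weaker value exceeded that of 99.8% of closed sites in the genome. A neighbouring closed site at 76.8 kb had 28 and 20, and one at 119 kb had 19 and 18. Beside them, the site at 76.2 kb had a peak in all libraries, with 22 and 16 in WT at D0 and D8 and 18 and 12 in HY. Its D8 to D0 ratio was 0.903 in WT (0.443 to 1.8) and 0.955 in HY (0.419 to 2.09), but 1.68 and 1.57 by the deposited fold, so its direction depends on the background used. The promoter also kept its peak. It had 44 and 27 in WT at D0 and D8 and 47 and 36 in HY, which gives a D8 to D0 ratio of 0.762 in WT (0.454 to 1.26) and 1.1 in HY (0.69 to 1.73). By the deposited fold these ratios were 0.912 and 1.2. The HY D0 library listed peaks at 2.63 kb and 2.12 kb with pileups of 22 and 19 that WT D0 did not list, and both D0 libraries had one at 1.54 kb (14 and 17).

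Among the 28 sites with a peak in all 4 libraries, 2 were at least 2-fold higher at D8 in both genotypes (7.14%, genome 2.67%) and 0 were at least 2-fold lower (genome 8.2%). Over all 24430 such sites of the genome, the median D8 level was 0.896 of D0 in WT and 0.943 in HY, so the middle shared site lay slightly below 1 on this scale. Both 2-fold sites lay in Ebf1. At 2 of the 28 sites, Ebf2 at 147 kb and Zfp521 at 185 kb, the D0 and D8 peaks of WT did not overlap and were joined through peaks of other libraries. By the deposited fold over the local background 0 sites passed. A further scale divides each pileup by its library's median over these shared sites (29 and 18 in WT at D0 and D8, 33 and 20 in HY). The ratio of these medians, over background, was 0.77 in WT and 0.868 in HY, further below 1 than the median of the ratios, and 5 sites passed on that scale.

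**Figure D5:**
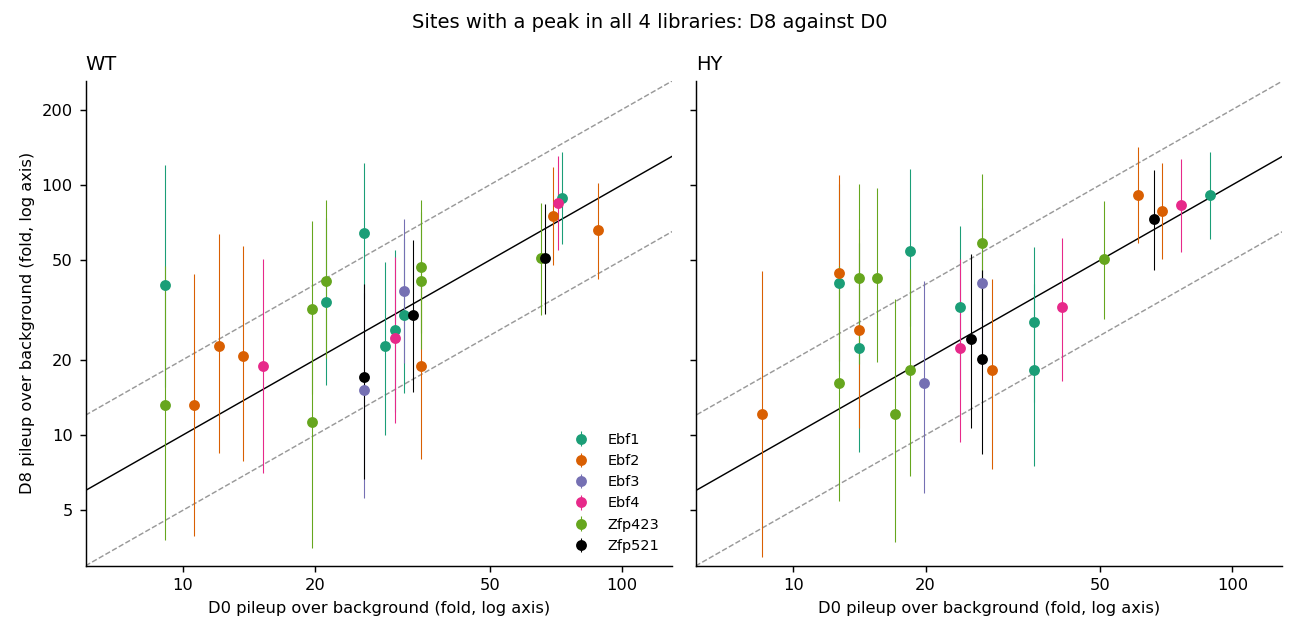
D8 against D0 summit pileup over background (fold, log axes) at the 28 sites with a peak in all 4 libraries, for WT and HY, coloured by gene. Vertical bars are 95% exact intervals of the ratio applied to the D0 level, the solid line marks equality and the dashed lines 2-fold, and most sites lie between the dashed lines.

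The WT and HY cells were separate immortalised cultures, so genotype and culture cannot be told apart. The HY lists had 7 peaks at D0 and 6 at D8 on chromosome Y and the WT lists 1 each, and the part of this difference in the results was not tested. No site of the 6 loci was restricted to WT or to HY on both days. Such sites made up 0.321% (WT) and 0.899% (HY) of the genome, so a count of 0 among 164 is near the background. At D0, 24 of 123 sites had a peak in WT only, where the genome had 12.1%, and 22 in HY only, where it had 21.7%. The WT-only sites were unevenly spread, with 9 at Zfp423 and 1 at Ebf2, whereas HY-only sites numbered 2 and 6 there. At D8, 29 of 91 sites had a peak in HY only, next to 26.3% of the genome, and 5 in WT only, next to 9.53%. The HY-only sites at D8 had pileups from 4 to 19. The highest were an Ebf1 site at 1.89 kb with a pileup of 19 and an Ebf2 site at 139 kb with 14, and the WT-only site of highest pileup lay 1.62 kb upstream of Zfp423 with 16. At shared sites of the genome the HY level was 1.05 times the WT level at D0 and 1.12 times at D8, so the excess of HY peaks at D8 at these loci was read against a genome that leans the same way. By the deposited fold the median log2 ratio of HY to WT was 0.04 on each day, so the larger lean at D8 is not seen on that scale. Limited to a −log10 q of 5 or more, HY-only sites at D8 numbered 11 and WT-only sites 4.

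The wider network of these factors was described by 20 genes, of which 19 were annotated under the symbols used: partners, upstream signals and targets of EBF2 and ZFP423. Of these, 9 had at least 1 opened site and 17 at least 1 closed site, and 13 had more closed than opened sites. Among all 22225 protein-coding genes these numbers were 6402, 14848 and 12570. Nfia, which encodes a DNA-binding partner in the brown fat programme, had 8 opened and 6 closed sites. Prdm16, a coregulator of beige and brown fat genes, had 5 and 8, and Cebpb, an early adipogenic factor, had 4 and 4. Pparg, the main regulator of adipocyte differentiation, had 3 and 3, and its partner Rxra had 4 and 3. Tle3, a corepressor that favours the white programme, had 4 and 8. The BMP pathway genes Bmp4, Smad1, Smad4 and Smad5 had no opened site and 2, 3, 3 and 2 closed sites, and Bmp7 had neither. The median gene of this list had 0 opened and 3 closed sites among 15, and the median protein-coding gene 0 and 1 among 8. Nothing particular to the list was read from these counts.

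Most of the 164 sites lay in introns (137), with 21 between genes, 4 in UTR exons and 2 in coding exons. Near the 50 kb limit upstream of the first TSS, the last sites inside were those of Ebf2 at 44.5 kb, given above, and of Ebf4 at 48.1 kb with a pileup of 12 in HY D0 alone. Just outside lay an Ebf1 site at 54.1 kb with 7 in WT D0 and a Zfp521 site at 55.8 kb with 24 in WT D0, 33 in HY D0 and 10 in HY D8. With limits of 10 kb and 100 kb the loci held 152 and 184 sites, with 22 and 24 opened and 34 and 39 closed.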

How the data were processed

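ATAC-seq had been run on 4 libraries of im-scWAT cells, 1 per genotype and day. Per the labels and the study's methods, the authors aligned reads to mm9 with Bowtie2, used SAMtools and Picard, and called peaks on each library with MACS3. Versions, the calling threshold and any Tn5 shift are not given in the sources used here. The deposited lists give the fold over local background (a ratio), −log10 p, −log10 q, a score derived from it and the summit offset. The score was not used. Pileup and local background were solved from fold and −log10 p (tolerance 0.002, 100% of peaks) with Python 3.11.15, NumPy 2.4.6, pandas 2.3.3 and SciPy 1.17.1, after tests on simulated data. The number of tags is unknown, and relative depth by background rate was 1, 0.806, 1.07 and 0.75 in WT D0, WT D8, HY D0 and HY D8. Intervals of pileup ratios are 95% exact (Clopper-Pearson) and cover counting error only. The GENCODE annotation of NCBIM37 (mm9) was used, with promoters from 1000 bp upstream to 100 bp downstream of a TSS. An additional Ebf1 gene ID at the same first TSS was joined to Ebf1. Coordinates are 1-based.

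The members, the lists of pathway and marker genes and the tests were chosen with earlier results of these data known. The naming rule took each gene's promoter sites (up to 4), the opened, closed and shared sites of highest or most changed level (up to 3 each) and sites that differed between genotypes (up to 2 on both days, up to 2 at D8). Not all sites that met this rule are described above. Left out were shared sites lower at D8, such as Zfp423 at 296 kb (D8 to D0 ratio 0.573 in WT and 0.716 in HY) and Ebf3 7.24 kb upstream (0.584 and 0.818). Shared sites higher at D8 were also left out, such as Ebf1 at 237 kb (1.6 and 1.35) and Ebf2 21.3 kb upstream (1.52 and 1.86). So was the closed Zfp423 promoter site at 155 kb (6 in WT D0 and 8 in HY D0). Sites outside that rule (Ebf1 at 1.89, 40.8 and 194 kb, Ebf2 44.5 kb upstream and at 1.25, 147 and 184 kb, Ebf3 at 84.9 and 91.1 kb and 31.9 kb upstream, Zfp423 at 20.6 and 123 kb and at 1.08, 1.62 and 2.52 kb upstream, and Zfp521 at 1.54, 2.12 and 2.63 kb) were chosen after their values were seen, as were the lowest and highest levels given. Overlap, summit linkage, −log10 q, list length, window, scaling and motif settings were varied. With 1 library per group, no test across conditions was made.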

Additional observations from a re-analysis of the deposited data

Results flagged for a closer look

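At 5 of 14 comparisons of peak numbers the sign differed between the genotypes or days, and none of these differences was tested. At Zfp423 the number of peaks at D8 minus that at D0 was -8 in WT and 4 in HY. The difference HY minus WT there was -6 on D0 but 6 on D8. It was -2 and 2 for Ebf4, and -1 and 3 for Zfp521. For the 6 loci combined it came to -1 and 24. Of 4 promoter sites with a peak in all libraries, 2 also moved in opposite directions between D0 and D8. The D8 to D0 ratio was 1.24 in WT and 0.927 in HY at the Ebf4 site 0.607 kb from the first TSS, and 0.762 in WT and 1.1 in HY at the Zfp521 promoter, and all 4 intervals given above include 1. At the Ebf4 site the ratios were 1.33 and 1.02 by the deposited fold and 1.61 and 1.07 scaled by shared sites, so the directions were not opposite under either alternative. At the Zfp521 promoter they were 0.912 and 1.2, and 0.989 and 1.26, and stayed opposite. By the deposited fold the promoter sites of Ebf1 (1.18 and 0.797) and Ebf3 (1.05 and 0.929) were opposite too. Which promoters moved in opposite directions thus depends on the scale.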

How the results depend on the processing

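Numbers of sites depended most on which peaks entered. With lists of equal length the loci held 99 sites in place of 164, and 9 closed in both genotypes in place of 35. Sites with a peak in HY only or WT only at D0 numbered 7 and 10 then, and 16 and 8 at D8, where the full lists gave 22, 24, 29 and 5. These are 14% and 20% of the sites with a peak at D0, next to 15.8% and 14.2% of the genome on the same lists, and 20.5% and 10.3% at D8, next to 18.2% and 14.9%. Limited to a −log10 q of 5 or more, they numbered 10 and 15 at D0 and 11 in HY only at D8. The 5 WT-only sites at D8 became 3 with 50% coverage and 9 with summits joined within 150 bp. The shared sites at least 2-fold higher at D8 in both genotypes, 2 by background rate, were 0 by the deposited fold, 5 when scaled by shared sites, 6 at 1.5-fold and 1 with a −log10 q of 5 or more. Those lower by 1.5-fold numbered 1 in place of 0. The shorter EBF motif was present at 11% of sites in place of 1.83%. The other 37 alternative values of these results lay within 1.5 times the main count or within its interval, as did 131 of 144 values for single genes and named sites, and no ratio past 2-fold changed direction among the shared sites chosen by the naming rule. Outside that rule, the HY ratio of the Zfp423 site 1.08 kb upstream was 2.19 by background rate and 0.828 by the deposited fold. The count of sites closed in both genotypes was lower with lists of equal length at each of the 6 genes, with 0 to 2 sites in place of 2 to 10. The cause of these shifts, apart from the peaks and sites each choice removes, was not tested. Depth limits all weak sites: at pileups near 5 a peak in 1 library and not in another may differ by counting error alone. No paired analysis was possible because each group has 1 library.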
